A study of Mus musculus with 6 samples.

Results

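The 50 genes described here carry the Ddx and Dhx names given to DEAD and DEAH box helicases of the mouse, without the innate sensors Ddx58 and Dhx58 and without Ddx21 and Ddx3y. DEAD box helicases with other names, such as the Eif4a genes, are not among them. They were chosen by name and biotype, as every protein-coding row of the deposited table whose symbol begins with Ddx or Dhx and a number, among 48897 genes in all. 35 carried a Ddx name and 15 a Dhx name, and they lay on 15 chromosomes. Ddx26b met the rule by its symbol, but the table describes it as integrator complex subunit 6 like and not as a box helicase. Poly(A) RNA was sequenced from C57BL/6 mouse embryonic fibroblasts at passages 5-7. The control cells received PBS. The TC cells received TNF-α, an inflammatory cytokine, with cycloheximide, which blocks translation. The TCZ cells received both of these and z-VAD-fmk, a broad caspase inhibitor. Each group had 2 libraries. Neither the doses nor the length of treatment can be stated from the labels. No group received TNF-α without cycloheximide, so the contributions of these agents cannot be told apart. Cycloheximide alone and z-VAD-fmk alone were also not given to any group. An effect of z-VAD-fmk itself can therefore not be told apart from one on the response to the other agents. The series title ties the treatments to apoptosis and necroptosis.

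DEAD and DEAH box proteins share an ATP-binding core with a short acidic motif, Asp-Glu-Ala-Asp or Asp-Glu-Ala-His, from which the family takes its name. They spend ATP to open short RNA duplexes or to strip proteins from RNA. Different members drive the steps of splicing, ribosome assembly, export, translation and decay of mRNA, and most are needed by every dividing cell, fibroblasts included.

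Library totals ran from 24922627 to 52909926 counts, and the libraries with fewest counts, control 2 and TCZ 2, also had fewer counts of small RNAs than the rest (Rnu1a1, a spliceosomal RNA, at 3 and 1 counts against 165 to 274). Several main results are therefore also given without both of these libraries. All 8 fibroblast markers were present in every library, with a summed level of 7729 to 7774 RPKM (read counts scaled to gene length and library size) in control, 6471 to 6548 in TC and 6706 to 6933 in TCZ. Single markers moved within this sum: 6 of the 8 were lower in TC than in control, Pdgfrb most (log2 -1.75), while Fn1 and Vim were higher, and in TCZ Pdgfra was lower by -2.67. The 4 leukocyte markers summed to 1.18 to 1.30 RPKM in control, 1.81 to 2.25 in TC and 2.71 to 2.75 in TCZ. Cd3e was at 0 in control and TC. Of the 3 leukocyte markers tested, 1 passed as higher in TC and 1 in TCZ, both against control. The 4 epithelial markers summed to 2.02 to 2.11 RPKM in control, 7.55 to 8.36 in TC and 1.31 to 1.35 in TCZ, and the 3 endothelial markers to 2.03 to 2.39, 24.8 to 26.1 and 9.80 to 10.2, with no marker of either list at 0. Krt18 and Kdr made up most of these sums, and other markers followed another order. Epcam was higher in TCZ than in control (log2 4.39, adjusted p = 0.000502), and Pecam1 went from 0.0767 CPM (counts scaled to library size with TMM factors) in control and 0.143 in TC to 10.8 in TCZ. The part of these marker differences in the helicase results was not tested. In bulk RNA, fewer cells of a type and less RNA per cell cannot be told apart. The labels do not state whether both libraries of a group stem from different cultures. The p-values therefore refer to library-to-library spread, and this spread may be technical.

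The promoters of 3 helicase genes are shown because these genes had the largest changes: Ddx60 and Ddx5 the largest rises in TCZ, and Dhx32 the largest fall. Each is the 250 bases before a RefSeq transcription start (GRCm38.p6, the assembly behind mm10), written from 5′ to 3′ on the gene's own strand. Capitals mark matches on either strand to the motifs searched. These were the core of the interferon-stimulated response element (GAAA, any 2 bases, GAAA), the E-box CACGTG, the ETS core CCGGAAG, the cyclic AMP response element TGACGTCA, the AP-1 site TGANTCA, the NF-kB site and the CArG box. None of the printed matches overlaps a match to another motif. Windows of Ddx5 and Dhx32 are 1 of 3 annotated for each gene, the one that held a match. A match here describes the sequence and does not show that a factor binds.
Ddx60, chr8:61927837-61928086, plus strand: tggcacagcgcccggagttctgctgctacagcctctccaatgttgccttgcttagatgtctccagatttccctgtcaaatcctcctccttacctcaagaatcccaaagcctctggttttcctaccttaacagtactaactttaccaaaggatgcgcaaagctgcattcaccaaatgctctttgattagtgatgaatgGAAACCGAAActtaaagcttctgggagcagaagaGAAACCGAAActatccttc
Ddx5, chr11:106788908-106789157, minus strand: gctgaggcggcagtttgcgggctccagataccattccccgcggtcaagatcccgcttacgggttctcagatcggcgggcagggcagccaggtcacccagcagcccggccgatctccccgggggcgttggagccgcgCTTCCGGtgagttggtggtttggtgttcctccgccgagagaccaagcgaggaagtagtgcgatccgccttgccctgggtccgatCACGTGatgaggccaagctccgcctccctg
Dhx32, chr7:133782786-133783035, minus strand: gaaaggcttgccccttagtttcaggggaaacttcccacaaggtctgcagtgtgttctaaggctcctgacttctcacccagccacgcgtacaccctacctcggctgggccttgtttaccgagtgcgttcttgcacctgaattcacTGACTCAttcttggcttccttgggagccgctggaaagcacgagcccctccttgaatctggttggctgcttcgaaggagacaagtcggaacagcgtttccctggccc
The Ddx60 promoter held the response element core in the form GAAACCGAAA at 2 places, beginning 53 and 19 bases before the start. Of 11372 tested genes with a promoter window, 3.68% held this core, and among the 45 helicase genes with a window it was found in Ddx60 and Ddx49. The Ddx5 window held an ETS core 114 bases and an E-box 30 bases before the start. The E-box was found in 11.3% of all tested genes and in 7 of the 45. The Dhx32 window held an AP-1 site, TGACTCA, 106 bases before the start. The AP-1 site was found in 6.67% of all tested genes, and Dhx32 was the 1 helicase gene among the 45 that held it.

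In untreated fibroblasts the helicase genes differed widely in level per length, on the authors' RPKM scale. Ddx5, a coactivator of transcription that also works in splicing and microRNA processing, was the most abundant at 149.5 ± 1.05 RPKM (SD, n = 2). Ddx3x, which helps ribosomes through structured leaders, followed at 103 ± 0.74 RPKM. Then came Dhx9, an unwinder of double-stranded RNA and RNA-DNA hybrids, at 69.9 ± 0.22 RPKM and Ddx1, a member of the tRNA ligase complex, at 66.5 ± 1.68 RPKM. Ddx39b, at 64.0 ± 0.89 RPKM, lay next, and its gap to Ddx1 was of the size of the spread between libraries. The median gene stood at 12.4 and 13.0 RPKM in the control libraries. The lowest were the germ line genes Ddx25, Ddx4 and Ddx43 and the interferon-inducible Ddx60, at 0.313 to 0.0332 RPKM. The range therefore covered more than 3 orders of magnitude.

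**Figure D1:**
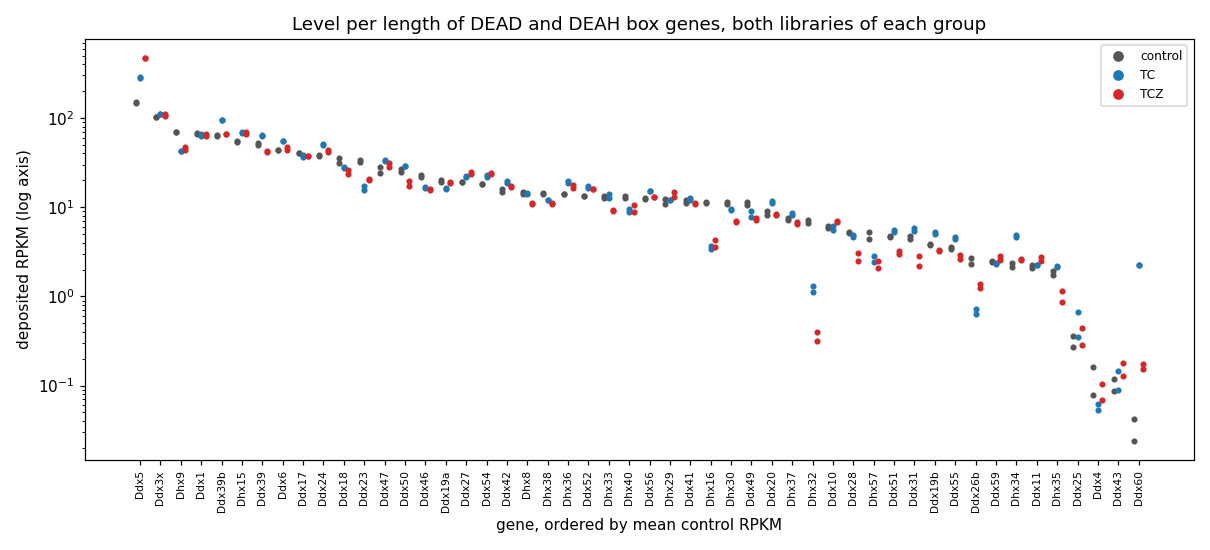
Level per length (deposited RPKM, log axis) of the 50 helicase genes in both libraries of each group, ordered by mean control level; each point is 1 library. Ddx5 lies highest in all 6 libraries, Dhx32 and Dhx16 drop below their control points after both treatments, and Ddx60 is lowest in control and reaches 2.23 RPKM in TC.

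Ddx5 took a growing share of the family's mRNA across the groups. The control libraries had 555 and 520.5 CPM, the TC libraries 1129 and 1139, and the TCZ libraries 1979 and 1887. The 3 groups did not overlap, with TCZ highest and control lowest. Ddx5 (chromosome 11, 106780355 to 106789180, minus strand) rose 2.11-fold in TC against control (log2 1.08 ± 0.07 SE, adjusted p = 1.07e-11, edgeR's quasi-likelihood test with Benjamini-Hochberg adjustment over 18563 genes, as for all adjusted p-values of genes). In TCZ it rose 3.59-fold against control (log2 1.85 ± 0.07, adjusted p = 1.26e-15) and 1.70-fold against TC (log2 0.77 ± 0.07, adjusted p = 4.74e-09). As a share of the summed RPKM of the 50 genes, it held 13.4 to 13.5% in control, 21.9 to 22.2% in TC and 34.2 to 34.6% in TCZ. The summed level of the other 49 genes was 954 and 971 RPKM in control, 1013 and 1003 in the TC libraries, and 881 and 907 in TCZ, with TCZ lowest. On the TMM scale the order differed, since their summed CPM was 3478 to 3679 in control, 4057 to 4097 in TC and 3769 to 3860 in TCZ, with control lowest. Ddx17, the closest paralog of Ddx5 and a partner in the same complexes, stayed within a narrow range. Its level was 342 and 319 CPM in control, 345 and 334 in the TC libraries, and 359 and 343 in TCZ. Its log2 differences from control were 0.04 (adjusted p = 0.669) in TC and 0.09 (adjusted p = 0.305) in TCZ. Scaling by library totals alone turned both differences to -0.11, with adjusted p-values of 0.0306 and 0.0248.

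In TC against control, 27 of the 50 helicase genes rose and 9 fell, against 60.7% of all 18563 genes tested that passed in either direction (31.5% higher and 29.1% lower). All 50 passed the low-count filter, so none was left untested. The share that passed was 72%, and the changes were mostly small, since the median size of the log2 difference was 0.43 against 0.69 over all genes. All genes tested include other biotypes and many low levels, whereas the helicase genes are protein-coding and 46 exceeded 1 RPKM in control. The part of biotype and level in these gaps was not tested. The median log2 difference was 0.29 in the family and 0.02 over all genes. Changes of at least 2-fold were found in 3 genes that rose, Ddx60, Dhx34 and Ddx5, and 3 that fell, Dhx32, Ddx26b and Dhx16. That is 6 of 50, where 29.3% of all genes passed with such a change (17.6% higher and 11.7% lower). The libraries of both groups did not overlap for 79.6% of all genes in this comparison, for 77.9% in TCZ against control and for 78.5% in TCZ against TC, so a lack of overlap was common. Scaling by library totals alone lowered the all-gene median by -0.14 in this comparison, by -0.20 in TCZ against control and by -0.06 in TCZ against TC, and all fold changes are relative to the TMM scale. With totals alone 23 helicase genes were higher and 14 lower, and without control 2 and TCZ 2 the counts were 26 and 12.

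In TCZ against control, 19 genes rose and 18 fell, or 74% of the 50 where 60.1% of all genes passed (31.5% higher and 28.6% lower). The median log2 difference was 0.10 in the family and 0.05 over all genes. Only Ddx60 and Ddx5 rose and only Dhx32 and Dhx16 fell by 2-fold or more, while 32.1% of all genes did so (18.3% higher and 13.8% lower). This balance depended on scaling, since totals alone gave 12 higher and 23 lower with a median of -0.09. Without control 2 and TCZ 2 it was 17 higher and 16 lower. TC and TCZ were compared with the same control libraries, so their values stand side by side here and are not independent.

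**Figure D2:**
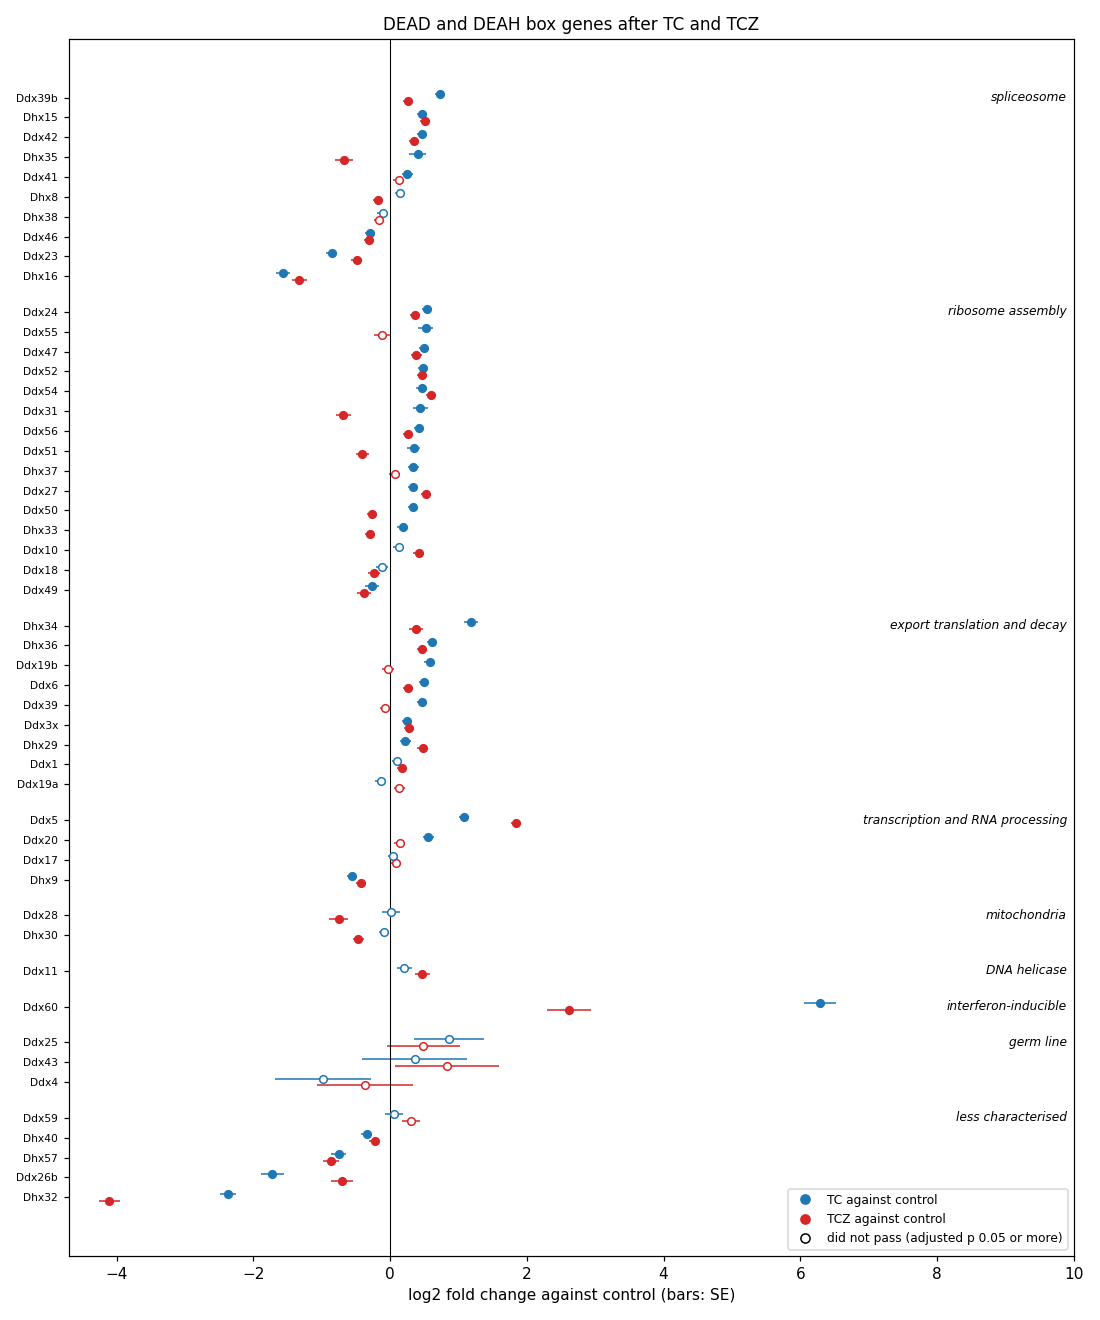
log2 fold change of each helicase gene in TC (blue) and TCZ (red) against control, with SE bars, grouped by role; open points did not pass. Most genes lie within 1 unit of 0, and Ddx60, Ddx5 and Dhx34 on the right and Dhx32, Ddx26b and Dhx16 on the left stand outside.

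Among the 10 helicases of the spliceosome, 5 rose and 3 fell in TC against control, or 50% and 30%. Over all genes these shares were 31.5% and 29.1%. Under library totals the balance became 3 and 4, with 5080 of all genes higher and 6586 lower. In TCZ against control 3 rose and 5 fell, or 30% and 50%, against 31.5% and 28.6% of all genes. Library totals gave 2 and 6. Over the 10 genes the median log2 difference was 0.19 in TC and -0.17 in TCZ, and 0.18 and -0.17 without control 2 and TCZ 2. Among the 5 that fell on the TMM scale was Dhx8 (log2 -0.18, adjusted p = 0.0345), whose call was lost in 8 of 12 alternatives. The largest fall was in Dhx16, which activates the assembled spliceosome before its first catalytic step. Dhx16 (chromosome 17, 35879764 to 35892670, plus strand) stood at 38.1 and 34.6 CPM in control, 11.8 and 12.8 in the TC libraries, and 16.0 and 12.6 in TCZ. Both treated groups lay below control, and the TC and TCZ libraries overlapped. It fell 2.95-fold in TC (log2 -1.56 ± 0.10, adjusted p = 1.84e-11) and 2.51-fold in TCZ (log2 -1.33 ± 0.11, adjusted p = 3.57e-10). TCZ and TC differed by 0.23 (adjusted p = 0.0764), and by 0.38 (adjusted p = 0.0058) without TCZ 2. Ddx23, which swaps the RNAs that hold the start of the intron, had 92.9 and 90.2 CPM in control, 48.1 and 53.0 in the TC libraries, and 66.0 and 64.1 in TCZ. The groups did not overlap and TCZ lay between the other two. Ddx23 fell by 0.86 ± 0.07 on the log2 scale in TC (adjusted p = 1.34e-09) and by 0.49 ± 0.07 in TCZ (adjusted p = 6.36e-06). It was higher in TCZ than in TC by 0.37 ± 0.07 (adjusted p = 0.000281).

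Ddx39b and Dhx15 moved the other way. Ddx39b, which acts in early spliceosome assembly and loads the export complex onto mRNA, had 109 and 99.2 CPM in control, 172 in both TC libraries, and 128 and 121 in TCZ. TC was highest and control lowest without overlap. Its rise was 0.72 ± 0.07 (adjusted p = 1.68e-08) in TC and 0.26 ± 0.07 (adjusted p = 0.00422) in TCZ, the latter with an adjusted p of 0.0899 without control 2, 0.0622 without TCZ 1 and 0.277 under library totals. Dhx15, which takes spent spliceosomes apart, had 199 and 182 CPM in control, 268 and 259.6 in the TC libraries, and 271 and 273 in TCZ. Both treated groups lay above control, with rises of 0.47 ± 0.07 (adjusted p = 6.39e-06) and 0.51 ± 0.07 (adjusted p = 2.23e-06). Ddx42, a helicase of the branch site complex, rose by 0.47 in TC and 0.35 in TCZ. Ddx46, which proofreads the branch site, had log2 differences of -0.29 and -0.31, both past the threshold.

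Dhx35, a little-studied component of the spliceosome, changed in opposite directions against control. It had 10.1 and 10.3 CPM in control, 13.7 and 13.3 in the TC libraries, and 5.77 and 7.24 in TCZ. No groups overlapped, with TC highest and TCZ lowest. The log2 differences were 0.40 ± 0.12 (adjusted p = 0.00647) in TC and -0.67 ± 0.13 (adjusted p = 0.000132) in TCZ. The rise in TC had an adjusted p of 0.0572 without control 1 and of 0.0934 under library totals. The direct difference of TCZ from TC was -1.07 ± 0.13 (adjusted p = 2.86e-07). Dhx8, which releases the finished mRNA, was lower in TCZ than in TC by -0.32 (adjusted p = 0.000713). Ddx41 rose by 0.25 in TC (adjusted p = 0.0117), a call lost in 5 of 12 alternatives, with a value of 0.11 under library totals and adjusted p-values of 0.0563 without control 1, 0.0619 without control 2 and 0.11 without TC 2. Dhx38, which remodels the spliceosome between the catalytic steps, had differences of -0.11 (adjusted p = 0.224) and -0.16 (adjusted p = 0.0725) from control. Under library totals both passed as lower, at -0.25 (adjusted p = 0.00121) and -0.36 (adjusted p = 4.83e-05).

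The 15 helicases of ribosome assembly were higher in TC almost throughout: 12 rose and 1, Ddx49, fell, with a median log2 difference of 0.34. These are 80% and 6.67%, against 31.5% and 29.1% of all genes, and library totals gave 11 and 2. Without control 2 and TCZ 2 the median was 0.32. In TCZ against control 7 rose and 6 fell, with a median of 0.06 that turned to -0.13 under library totals. That is 46.7% and 40%, where 31.5% and 28.6% of all genes passed in each direction. Rises in TC ranged from 0.18 (Dhx33) to 0.54 (Ddx24), all under 2-fold. Ddx24, Ddx47, Ddx52, Ddx54, Ddx56 and Ddx27 also rose in TCZ, by 0.36, 0.39, 0.46, 0.60, 0.26 and 0.52, with the call on Ddx56 lost in 3 of 12 alternatives. Yeast counterparts of Ddx47 and Ddx52 act in the small subunit, and those of Ddx27, Ddx54 and Ddx56 in the large one. Ddx54 had 68.2 and 63.3 CPM in control, 87.4 and 93.6 in the TC libraries, and 103 and 96.5 in TCZ. Ddx27 had 50.9 and 47.2 CPM in control, 62.7 and 60.8 in the TC libraries, and 73.5 and 67.3 in TCZ. In both genes control was lowest, without overlap with the treated groups. TCZ differed from TC by 0.14 (adjusted p = 0.112) for Ddx54 and by 0.19 (adjusted p = 0.0356, lost in 6 of 12 alternatives) for Ddx27. The differences of TCZ from control were 0.60 ± 0.08 (adjusted p = 4.68e-07) for Ddx54 and 0.52 ± 0.08 (adjusted p = 4.02e-06) for Ddx27. Ddx10, whose yeast counterpart acts in the small subunit, had 37.5 and 37.4 CPM in control, 43.1 and 38.5 in the TC libraries, and 50.7 and 49.5 in TCZ. TCZ lay above the other groups, by 0.42 ± 0.08 against control (adjusted p = 8.56e-05) and 0.30 ± 0.08 against TC (adjusted p = 0.00251, and 0.133 without TC 2).

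Ddx31, whose yeast counterpart acts in the large subunit, had the largest fall of this group from TC to TCZ. It had 14.8 and 14.9 CPM in control, 21.0 and 19.4 in the TC libraries, and 8.45 and 10.3 in TCZ. TC was highest and TCZ lowest, with no overlap. Against control, Ddx31 rose by 0.44 ± 0.10 in TC (adjusted p = 0.000923) and fell by 0.68 ± 0.11 in TCZ (adjusted p = 2.11e-05). TCZ lay 2.19-fold below TC (log2 -1.13 ± 0.11, adjusted p = 1.71e-08). Ddx51, whose yeast counterpart also serves the large subunit, differed from control by 0.34 in TC and -0.41 in TCZ. For Ddx50, a nucleolar paralog of Ddx21, these values were 0.33 and -0.27, and for Dhx33, which acts in rRNA synthesis, 0.18 and -0.30. All of these values passed, that of Dhx33 in TC with an adjusted p of 0.0433. The Dhx33 call in TC was lost in 6 of 12 alternatives. Its value was 0.12 without TC 1 and 0.037 (adjusted p = 0.632) under library totals. Ddx55 and Dhx37 rose by 0.52 and 0.34 in TC and differed from control by -0.11 (adjusted p = 0.423) and 0.06 (adjusted p = 0.509) in TCZ. Under library totals the difference of Ddx55 in TCZ was -0.31 (adjusted p = 0.0232). Ddx49 fell by 0.26 in TC (adjusted p = 0.0303, but 0.368 without control 1 and 0.3 without TC 2). It fell by 0.39 in TCZ (adjusted p = 0.00294, and 0.085 without control 1). Ddx49 overlaps Homer3 on the opposite strand for 1496 bases, and Homer3 stood at 41.0, 30.1 and 28.5 CPM in control, TC and TCZ. Ddx18 fell by 0.23 in TCZ (adjusted p = 0.0287), but its difference was -0.095 (adjusted p = 0.466) without control 1 and -0.13 (adjusted p = 0.278) without TCZ 2. That call was also lost with DESeq2 and without the low-count filter. In TC, Ddx18 differed from control by -0.12 (adjusted p = 0.266), or by -0.26 (adjusted p = 0.00295) under library totals. Without control 2 this difference was -0.25.

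**Figure D3:**
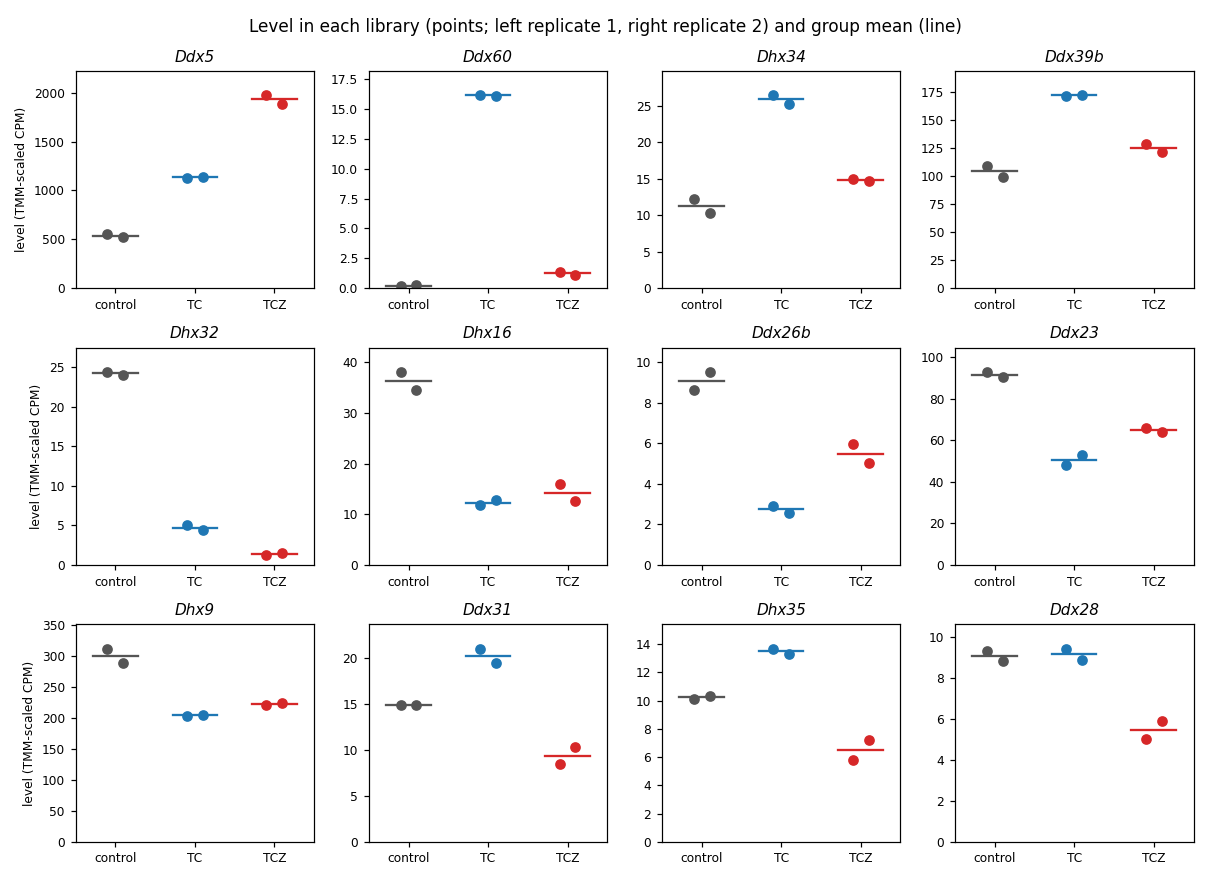
Level (TMM-scaled CPM, linear axes from 0) of 12 helicase genes in each library, with the group mean as a line. Ddx5 climbs from control through TC to TCZ, Dhx32 descends in the same order, and Ddx31, Dhx35, Dhx34 and Ddx60 are highest in TC.

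Of the 9 helicases of export, translation and decay, 7 rose and none fell in TC, and 6 rose and none fell in TCZ. Both comparisons are against control, with 0 lower by edgeR at an unadjusted p under 0.05 and 0 lower by DESeq2. The shares that rose were 77.8% and 66.7%, where 31.5% of all genes rose in either comparison and 29.1% and 28.6% fell. With totals alone the TC counts were 6 and 1 and the TCZ counts 2 and 2, and without control 2 and TCZ 2 they were 7 and 1, and 4 and 0. Dhx34, which remodels complexes of nonsense-mediated decay, had 12.3 and 10.4 CPM in control, 26.5 and 25.3 in the TC libraries, and 15.0 and 14.7 in TCZ. TC stood far above both other groups. Dhx34 rose 2.27-fold in TC (log2 1.18 ± 0.10, adjusted p = 1.06e-09). Its rise in TCZ was 0.38 ± 0.11 (adjusted p = 0.00371, but 0.0892 without control 2 and 0.114 under library totals), and TCZ lay below TC by -0.80 ± 0.10 (adjusted p = 5.95e-07). Dhx36, which unwinds G-quadruplexes, had 79.8 and 73.3 CPM in control, 119.8 and 114 in the TC libraries, and 106 and 107 in TCZ. Both treated groups were above control, by 0.61 ± 0.07 (adjusted p = 2.08e-07) and 0.47 ± 0.07 (adjusted p = 9.03e-06).

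Ddx6, which represses translation and promotes decapping, had 303 and 281 CPM in control, 411 and 409 in the TC libraries, and 349.5 and 349.8 in TCZ. Control was lowest and TC highest, with rises of 0.49 ± 0.07 (adjusted p = 2.72e-06) and 0.26 ± 0.07 (adjusted p = 0.00289, and 0.21 under library totals). Ddx3x had 499.7 and 469 CPM in control, 577 and 574 in the TC libraries, and 584 and 585 in TCZ. The treated groups lay above control by 0.25 ± 0.07 (adjusted p = 0.00353) and 0.27 ± 0.07 (adjusted p = 0.00181). The former had an adjusted p of 0.0782 without TC 1 and of 0.0572 without TC 2, and the latter one of 0.118 under library totals. Dhx29, which helps the small subunit scan structured leaders, rose by 0.22 in TC and 0.47 in TCZ. The call in TC was lost in 5 of 12 alternatives, with a value of 0.08 under library totals and adjusted p-values of 0.0987 without control 1, 0.0859 without TC 1 and 0.0759 without TC 2. Ddx1 rose by 0.17 in TCZ (adjusted p = 0.0458), a call lost in 9 of 12 alternatives, with a value of -0.032 under library totals.

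Paralog pairs of export were read side by side, with no test of the difference between paralogs. Ddx39, the close relative of Ddx39b, had 104 and 101 CPM in control, 141 and 142 in the TC libraries, and 98.7 and 95.0 in TCZ. It rose by 0.46 ± 0.07 in TC (adjusted p = 5.33e-06), and TCZ differed from control by -0.08 (adjusted p = 0.335), or by -0.28 (adjusted p = 0.000181) under library totals. Ddx19b, which strips proteins from mRNA at the nuclear pore, had 24.4 and 23.3 CPM in control, 34.4 and 36.9 in the TC libraries, and 24.4 and 22.3 in TCZ. Its TC libraries were highest and its control and TCZ libraries overlapped, with a rise of 0.58 ± 0.08 in TC (adjusted p = 3.71e-06). TCZ differed from control by -0.026 (adjusted p = 0.818), or by -0.23 (adjusted p = 0.0195) under library totals. Ddx19a, its neighbour and near-copy, had 59.5 and 52.3 CPM in control, 50.6 and 51.1 in the TC libraries, and 62.6 and 60.0 in TCZ. TC lay below control, by -0.14 (adjusted p = 0.125), or by -0.24 (adjusted p = 0.0283) without control 2. Ddx19a was higher in TCZ than in TC by 0.27 ± 0.08 (adjusted p = 0.00499, and 0.0622 without TC 1). Ddx19b was lower in TCZ than in TC by -0.60 ± 0.09 (adjusted p = 3.33e-06). The sources used here do not say how reads shared by these near-identical pairs were assigned, which makes the levels of both pairs uncertain. Ddx19b also overlaps Aars on the opposite strand for 3925 bases. Aars itself stood at 417 CPM in control, 316 in TC and 426 in TCZ.

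The other regulators of transcription and RNA processing were Ddx20 and Dhx9. Dhx9 had 312 and 289 CPM in control, 204 in both TC libraries, and 221 and 224 in TCZ. Both treated groups lay below control, by -0.56 ± 0.07 (adjusted p = 4.84e-07) and -0.43 ± 0.07 (adjusted p = 1.73e-05). Per length, Dhx9 went from the third most abundant helicase gene in control to rank 9 in TC and 7 in TCZ. Ddx20, which helps assemble spliceosomal particles with the SMN protein, rose by 0.56 in TC (adjusted p = 1.99e-06) and differed from control by 0.14 in TCZ (adjusted p = 0.129).

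Both helicases of mitochondrial ribosome assembly were lower in TCZ than in control and in TC. Ddx28 had 9.32 and 8.83 CPM in control, 9.43 and 8.87 in the TC libraries, and 5.03 and 5.87 in TCZ. Control and TC overlapped, and TCZ lay below both, by -0.75 ± 0.14 against control (adjusted p = 7.99e-05) and -0.76 ± 0.14 against TC (adjusted p = 7.05e-05). Dhx30 had 57.6 and 55.8 CPM in control, 52.5 and 54.4 in the TC libraries, and 42.7 and 39.3 in TCZ. TCZ was lowest without overlap. Against control, TC differed by -0.09 (adjusted p = 0.327), or by -0.23 (adjusted p = 0.00327) under library totals. Its differences in TCZ were -0.47 ± 0.08 from control (adjusted p = 1.59e-05) and -0.38 ± 0.08 from TC (adjusted p = 0.000195). Ddx11, a DNA helicase of sister chromatid cohesion, had 9.07 and 9.12 CPM in control, 10.6 and 10.4 in the TC libraries, and 12.3 and 13.0 in TCZ. TCZ was highest, by 0.47 ± 0.11 against control (adjusted p = 0.00121, and 0.0531 under library totals).

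Ddx60, an interferon-inducible helicase of antiviral defence, had the largest change of the family. Its level was 0.165 and 0.265 CPM in control, from 8 counts in each library, 16.2 and 16.1 CPM in TC, and 1.36 and 1.12 CPM in TCZ. The groups were far apart, with TC highest and TCZ between. Ddx60 (chromosome 8, 61928064 to 62037704, plus strand) rose 78-fold in TC (log2 6.29 ± 0.24, adjusted p = 9.59e-16) and 6.13-fold in TCZ (log2 2.62 ± 0.33, adjusted p = 4.39e-07). TCZ lay 12.7-fold below TC (log2 -3.67 ± 0.18, adjusted p = 2.39e-13). Without control 2 and TCZ 2 these log2 values were 6.59, 3.02 and -3.57. With 8 counts in each control library, the SEs against control are rough and may be too small. The promoter with the repeated response element core printed above is that of this gene. Whether the element has a part in these changes was not tested. Ddx49, the other helicase gene with the core, had log2 differences from control of -0.26 in TC and -0.39 in TCZ.

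Dhx32, a less characterised relative of Dhx15, had the largest fall. It had 24.4 and 24.0 CPM in control, 5.01 and 4.37 in the TC libraries, and 1.30 and 1.57 in TCZ. The groups descended in that order without overlap. Dhx32 (chromosome 7, 133720935 to 133782785, minus strand) fell 5.17-fold in TC (log2 -2.37 ± 0.12, adjusted p = 2.29e-13) and 17.3-fold in TCZ (log2 -4.11 ± 0.15, adjusted p = 5.83e-16). TCZ lay 3.34-fold below TC (log2 -1.74 ± 0.17, adjusted p = 1.31e-08). The gene overlaps Bccip on the opposite strand for 211 bases, and Bccip stood at 40.3, 49.9 and 44.3 CPM in control, TC and TCZ. Of the other less characterised genes, Dhx57 had 27.1 and 30.2 CPM in control, 18.3 and 15.7 in the TC libraries, and 17.4 and 13.5 in TCZ. Both treated groups of Dhx57 lay below control, by -0.75 ± 0.11 (adjusted p = 3.65e-06) and -0.87 ± 0.11 (adjusted p = 8.32e-07). Dhx40, also less characterised, fell by 0.34 in TC and by 0.22 in TCZ (adjusted p = 0.0197). The call in TCZ was lost in 4 of 12 alternatives, among them without TCZ 1 (-0.15, adjusted p = 0.258), without control 1 (adjusted p = 0.093) and with DESeq2 (adjusted p = 0.0697). Ddx59, linked in humans to a developmental disorder of face and digits, had differences of 0.06 (adjusted p = 0.724) and 0.31 (adjusted p = 0.0537). With RLE factors the latter was 0.33 (adjusted p = 0.0342).

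Ddx26b had 8.62 and 9.52 CPM in control, 2.90 and 2.58 in the TC libraries, and 5.94 and 5.05 in TCZ. TC was lowest, and TCZ lay between TC and control. It fell 3.30-fold in TC (log2 -1.72 ± 0.17, adjusted p = 8.06e-09). In TCZ it fell by 0.71 ± 0.16 (adjusted p = 0.000685, and 0.0507 without control 2 and TCZ 2). Leaving this gene out of the 50 gave 27 higher and 8 lower in TC, and 19 higher and 17 lower in TCZ. The germ line helicases Ddx25, Ddx4 and Ddx43 had 173, 83 and 70 counts over the 6 libraries, and none passed in any comparison. The 5 germ line markers, of which Ddx4 is 1, summed to 0.514 to 0.543 RPKM in control. Their sum was 0.730 to 0.884 in TC and 0.784 to 1.30 in TCZ. Mael and Tex101 were at 0 in control, and Dazl and Tex101 in TC 2 and both TCZ libraries. Of the 2 germ line markers tested, 1 passed as higher in TCZ than in control (log2 1.41). The most abundant of the 3 helicases was Ddx25. It had 0.433 and 0.531 CPM in control, 1.13 and 0.604 in the TC libraries, and 0.804 and 0.496 in TCZ. Its log2 differences from control were 0.86 in TC (adjusted p = 0.158) and 0.48 in TCZ (adjusted p = 0.457). No change was detected at this depth, which does not show that there was none.

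TCZ was compared with TC to ask how cells given z-VAD-fmk beside TNF-α and cycloheximide differed from cells given only the latter agents. Of the 50 helicase genes, 8 were higher and 19 lower in TCZ, or 54% where 56.1% of all genes passed (28.2% higher and 27.9% lower). The median log2 difference was -0.12, against 0.02 over all genes, and -0.07 without control 2 and TCZ 2. The genes that differed by at least 2-fold were Ddx60, Dhx32, Ddx31 and Dhx35, which were lower in TCZ, and Ddx26b, which was higher (log2 1.02 ± 0.17, adjusted p = 3.44e-05), against 23.3% of all genes (11.6% higher and 11.7% lower). Ddx5, Ddx23, Ddx10, Ddx19a, Ddx11, Dhx29 and Ddx27 were the other genes higher in TCZ. The call on Ddx11 (0.26 ± 0.11, adjusted p = 0.0484) was lost in 11 of 12 alternatives and those on Ddx27 and Dhx29 in 6 and 4, and the number of higher genes was 4 without TC 1 and also 4 without TC 2. Of the 15 ribosome assembly genes 2 were higher and 7 lower, of the 10 spliceosome genes 1 and 3, and of the 9 genes of export, translation and decay 2 and 4.

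**Figure D4:**
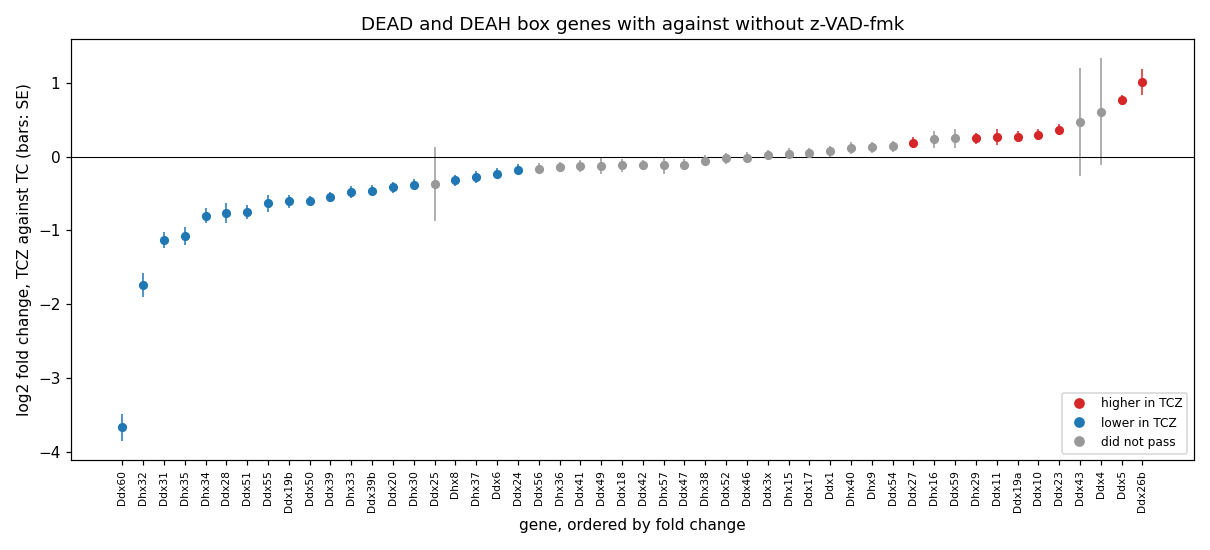
log2 fold change of each helicase gene in TCZ against TC, with SE bars, in ascending order; red and blue points passed and grey points did not. Ddx60 at -3.67 and Dhx32 at -1.74 lie at the left end, Ddx5 at 0.77 and Ddx26b at 1.02 at the right.

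Helicases outside the DEAD and DEAH names were set beside them. Of 19 other RNA helicases tested of 20 listed, 11 rose and 4 fell in TC, 9 rose and 5 fell in TCZ, and 1 was higher and 9 lower in TCZ against TC. For this list and the next 3, the shares of all genes were 31.5% higher and 29.1% lower in TC, 31.5% and 28.6% in TCZ, and 28.2% and 27.9% in TCZ against TC. In this list they were 57.9% and 21.1%, 47.4% and 26.3%, and 5.26% and 47.4%. Helz2, an interferon-inducible coactivator, rose by 1.92 in TC and 0.72 in TCZ. Eif4a2, the translation initiation helicase, rose by 1.10 and 0.57, and its relative Eif4a1 by 0.47 and 0.45. Ascc3, which splits stalled ribosomes, rose by 1.17 and 0.60. Dicer1, which cuts microRNA precursors, was lower by log2 values of -1.52 and -2.69. Znfx1, an antiviral helicase, differed by 0.42 in TC and -1.16 in TCZ, and by -1.58 between them. All of these values passed.

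Partner proteins of the family were read in the same way. Of 22 G-patch proteins, several of which switch on DEAH helicases, 12 rose and 7 fell in TC, 8 rose and 7 fell in TCZ, and 2 were higher and 10 lower in TCZ against TC. Their shares in TCZ, 36.4% higher and 31.8% lower, lay near the 31.5% and 28.6% of all genes. The splicing regulator Rbm10 was lower, at -1.41 and -2.32, and Sugp2 rose by 1.22 and 1.12. Of 12 partners of Ddx6 in decapping and repression, 6 rose and 5 fell in TC, 3 rose and 5 fell in TCZ, and 1 was higher and 9 lower in TCZ against TC. Atxn2, an RNA-binding partner, rose by 1.26 and 0.70, while Eif4enif1, which carries the cap-binding protein to repressed mRNA, had log2 differences of -0.23 in TC and -1.10 in TCZ. Of 16 export partners of Ddx39b and Ddx19, 9 rose and 2 fell in TC, 8 rose and 4 fell in TCZ, and 2 were higher and 3 lower in TCZ against TC. The export complex subunits Thoc6 and Thoc2 rose by 1.70 and 1.08 in TC and by 1.56 and 0.97 in TCZ. Gle1, the activator of Ddx19, differed by -0.97 in TC and -0.22 in TCZ and was higher in TCZ than in TC by 0.74.

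**Figure D5:**
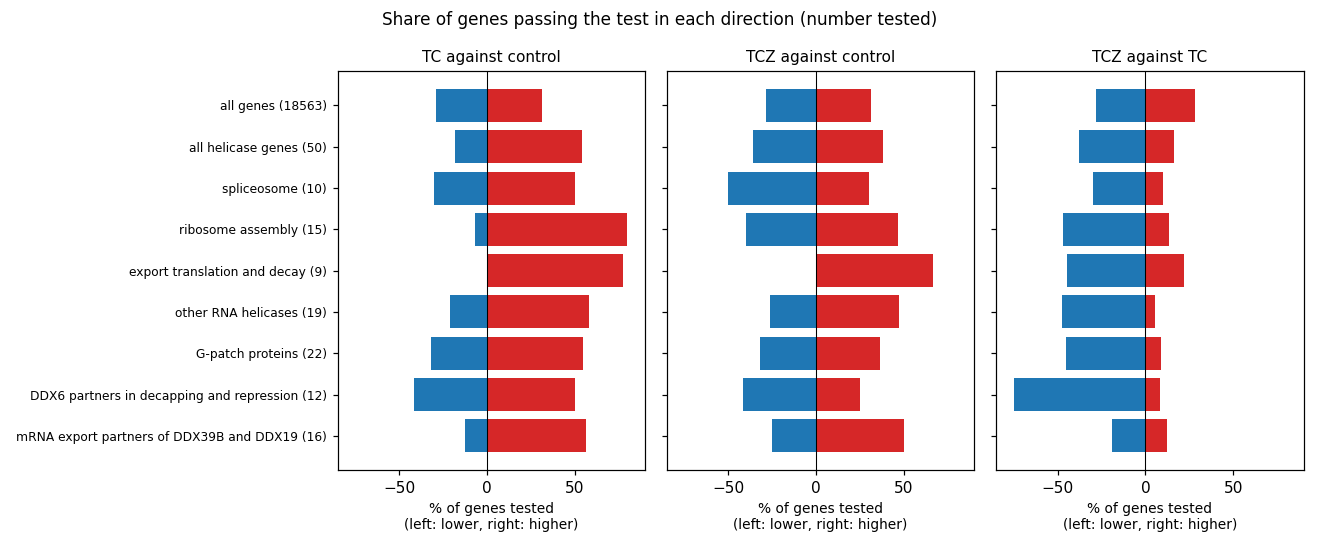
Share of genes passing the test as higher (red, right) or lower (blue, left) in each comparison, for all 18563 genes, the 50 helicase genes, 3 role groups and 4 related lists, with the number tested in brackets. In TC against control the red bars of the helicase genes reach 54% against 31.5% of all genes, and in TCZ against TC their blue bars reach 38% against 27.9%.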

How the data were processed

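Poly(A) RNA of 6 mouse embryonic fibroblast libraries was used, 2 each of control, TC and TCZ. The authors deposited 1 table of raw read counts per gene, with column names giving the library, per the file headers. The same table holds the authors' RPKM values, which equalled the counts per kilobase of the table's gene length and library total, with a largest difference of 4.97e-07. The submitters' processing notes list HTSeq, HISAT2 2.1.0 and bcl2fastq as tools and mm10 as the build, and the strand setting and annotation were not given in the sources used. Reads of overlapping genes on opposite strands, which 14 of the helicase genes have, can therefore not be told apart.

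The fits used edgeR 4.0.16 under R 4.3.3. Libraries of a group differed beyond counting noise (chi-square per gene 4.63 in control, 5.47 in TC and 7.88 in TCZ). Of 48897 genes, 18563 passed filterByExpr with a minimum count of 10. TMM factors scaled the libraries, and all 6 entered 1 quasi-likelihood fit with group as the only factor (3 residual degrees of freedom, biological coefficient of variation 7.38%). Adjusted p-values are Benjamini-Hochberg over all genes tested, with a threshold of 0.05. Levels are TMM-scaled CPM computed here, and log2 differences carry an SE. Each SE is the size of the log2 difference divided by the square root of its quasi-likelihood F statistic. It is therefore approximate, and least certain where counts are few, as for Ddx60 in control. Values compared between genes are the deposited RPKM. The procedure was also run on simulated counts, with their spread taken from this fit and far fewer changed genes. That run cannot show how the calls behave where 60.7% of genes pass, as in TC against control. Library totals of 24922627 to 52909926 counts leave the genes with fewest counts imprecise.

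The helicase genes and all lists were chosen with earlier results of these data known. Genes named with values in every library were the 5 largest passing rises and falls of each comparison without overlap, the member of each role group with the smallest adjusted p, the paralog pairs of Ddx5, Ddx19a and Ddx39, and Ddx3x, Ddx6, Dhx9, Dhx15 and Dhx36; other members appear with a fold change within their role group. Alternatives were RLE factors, library totals, no low-count filter, DESeq2 1.42.0, the replicate number as a block, each library left out in turn, and control 2 and TCZ 2 left out together. Promoter windows of 250 bases before to 50 after the start are from RefSeq (GRCm38.p6), matched by Entrez ID for 45 of the 50 genes. Transcript classes are from GENCODE. Protein sequences were not used here.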

Additional observations from a re-analysis of the deposited data

How the results depend on the processing

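All helicase genes that changed by at least 2-fold kept their call and direction in each of the 12 alternatives: 6 in TC against control, 4 in TCZ against control and 5 in TCZ against TC. Of all calls, 30 of 36, 25 of 37 and 19 of 27 held in every alternative. Library totals alone gave 14 lower genes in place of 9 in TC against control and 12 higher in place of 19 in TCZ against control. They reversed Ddx1 in TCZ (-0.032) and Ddx17 in TC (-0.11) and TCZ (-0.11). Without the low-count filter 3 genes in place of 8 were higher in TCZ against TC. Leaving out 1 library at a time gave 4 to 7 such genes. The cause of these shifts was not tested.

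With the replicate number as a block, 36, 37 and 26 genes passed; Ddx11 in TCZ against TC was the 1 call lost (adjusted p = 0.0578). Same-numbered libraries deviated together by correlations of 0.0115 (control and TC), 0.124 (control and TCZ) and -0.0215 (TC and TCZ). Weak correlations of this kind cannot decide whether same-numbered libraries were handled together, and the labels do not state it. Where 1 library of a group was left out, the lone library was assumed to vary like the others. The lowest counts, 70 to 173 for the germ line genes, limit what could be detected there.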

Other observations

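By name, 20 of 35 Ddx genes were higher and 4 lower in TC against control, and 7 of 15 Dhx genes were higher and 5 lower, where 31.5% of all genes were higher and 29.1% lower. In TCZ against control these counts were 15 and 9 for the Ddx genes, and 4 and 9 for the Dhx genes, beside 31.5% and 28.6% of all genes. The difference between the names was not tested.

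The ETS core CCGGAAG was found in the promoter window of 19 of the 45 helicase genes with a window (42.2%), and in 18.3% of all 11372 tested genes with one. The cyclic AMP response element was found in 5 of the 45, Ddx19a, Ddx28, Ddx49, Ddx51 and Dhx36, against 3.45% of all genes. The NF-kB site was found in 3 of the 45, Ddx59, Dhx15 and Dhx8, against 12.5% of all genes, and the CArG box in 1, Ddx26b, against 1.63%. No test was made of these shares.

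In the GENCODE annotation 14 of the 50 helicase genes (28%) had a transcript of the nonsense-mediated decay class, against 27.2% of 14194 protein-coding genes tested. For retained introns it was 38 of 50 (76%) against 56.2%. The median log2 difference of TC from control was 0.28 in the 14 helicase genes with a decay-class transcript and 0.29 in the 36 without one. In TCZ against control these medians were -0.10 and 0.15. Counts per gene do not separate these transcripts.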
